A study of Mus musculus with 4 samples.

Results

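The chromosome 11 region that holds Kcnj16, Kcnj2 and Sox9 was read in Hi-C matrices of male mouse embryonic stem cells (mESCs). The region ran from 500 kb before the first to 500 kb after the last of these 3 gene bodies, which gave 71 of the 66382 bins of 40 kb in the matrices (chr11:110320001-113160000, mm9). All 71 bins were kept in both matrices. Hi-C joins DNA ends that lay close together in fixed nuclei and counts the joined read pairs for each pair of genomic regions. The series compared wild-type (WT) mESCs with mESCs from a Firre knockout (KO), in which the Firre long non-coding RNA locus on the X chromosome was deleted, and asked whether topologically associating domain (TAD) boundaries remain. Each group had 2 libraries, technical duplicates per the methods, pooled in 1 matrix. Differences between the matrices therefore have no replicate check, and no test was run.

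Per the methods, the WT cells were the N3 line, both cultures had 2i medium, and feeder fibroblasts, depleted before use, were named for the Firre KO culture. In both groups, cells were fixed with 1% formaldehyde for 10 min and chromatin was cut with HindIII. Genotype, culture and possibly cell line thus differed together and cannot be told apart. The bin that lies wholly within the Firre gene body (chrX:47920001-47960000) still held 2011 read pairs in the Firre KO-labelled matrix, against 1782 in WT. These counts were 3.35 and 3.41 times the median X chromosome bin, so the counts go against the label, and the group is called the Firre KO-labelled matrix throughout. The matrices held 65611035 (WT) and 46635652 read pairs, of which 16.1% and 35.6% joined different chromosomes. All intervals below are 95% intervals that cover counting error only.

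A TAD is a stretch of chromosome whose parts contact each other more than they contact the neighbouring stretch. Its ends are often bound by the zinc finger protein CTCF, which halts the loop-extruding cohesin ring. Sox9 encodes a transcription factor needed for cartilage and testis development and is controlled by enhancers spread through a long gene desert. Kcnj2 (Kir2.1) and Kcnj16 (Kir5.1) encode subunits of inward rectifier potassium channels, and the boundary between their TAD and the Sox9 TAD is known for keeping Sox9 enhancers from Kcnj2.

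The 3 genes lie on the plus strand of chromosome 11. Kcnj16 spans chr11:110829347-110889282 and Kcnj2 spans chr11:110927478-110938135, so that 38.2 kb separates them. Sox9 spans chr11:112643538-112649074 and starts 1705 kb after the end of Kcnj2. The 250 bases before the annotated start of Kcnj2 and of Sox9, the start sites from which contacts were read at either end of this interval, are shown on the plus strand with each CG dinucleotide in capitals.
Kcnj2, chr11:110927228-110927477: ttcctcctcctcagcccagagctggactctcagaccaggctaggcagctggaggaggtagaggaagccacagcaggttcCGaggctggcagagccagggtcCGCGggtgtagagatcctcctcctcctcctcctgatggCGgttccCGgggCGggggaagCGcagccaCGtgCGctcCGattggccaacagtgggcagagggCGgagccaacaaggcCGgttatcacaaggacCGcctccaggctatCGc
Sox9, chr11:112643288-112643537: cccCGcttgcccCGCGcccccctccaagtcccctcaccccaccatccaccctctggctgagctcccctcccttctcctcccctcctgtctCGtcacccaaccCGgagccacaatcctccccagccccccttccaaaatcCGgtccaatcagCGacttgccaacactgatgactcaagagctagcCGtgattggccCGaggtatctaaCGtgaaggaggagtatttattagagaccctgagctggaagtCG
The Kcnj2 stretch held 14 and the Sox9 stretch 11 CG dinucleotides, against a median of 9 over 20732 mouse promoter stretches of this length. The same stretch before Kcnj16 held 3.

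The genomic sequence was also searched on both strands for the CTCF core, the 12-base consensus at the centre of the CTCF motif, because domain ends are the places the contact results turn on. The core was found in 8 of the 71 bins, while 17.1% of all autosomal bins held it. The boundary bin described below was the one bin of the 71 that held it on both strands, as did 1.40% of autosomal bins, and the boundary bin beyond Sox9 held it on the plus strand. These matches are shown 5′ to 3′ on the strand of the match, with the core in capitals.
Kcnj2-Sox9 boundary bin, chr11:111393961-111393990, minus strand: tccatgtgaCCACTAGATGGCagagtagtg
Kcnj2-Sox9 boundary bin, chr11:111399147-111399176, plus strand: aacatgttaCCAGCAGGTGGCagtccagta
Boundary bin beyond Sox9, chr11:113033906-113033935, plus strand: acacacgcaCCACTAGGTGGCgacagagcc
The nearest match in the Kcnj side lay 72.7 kb before the centre of the boundary bin, on the minus strand, and the nearest in the Sox9 side 386 kb after it, on the plus strand. No match was found in the boundary bin at the outer end of the Kcnj side, chr11:110200001-110240000. The bins of the shallow boundary within the desert, described below, held none either. Inside the Kcnj side, near its outer end, matches on the minus strand lay at chr11:110348575-110348586 and chr11:110357610-110357621, in the first bin of the region. This form of the core was searched after 2 narrower forms, neither of which matched in the boundary bin. A match of letters is not a measurement of binding, which was not measured in these matrices.

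The strongest boundary between the Kcnj genes and Sox9 lay in the same 40 kb bin of both matrices, chr11:111360001-111400000, where no gene is annotated. It began 422 kb after the end of Kcnj2 and ended 1244 kb before the start of Sox9. Boundaries were called from the insulation score, the log2 of the mean contact in a 480 kb square that slides along the diagonal over the mean of the chromosome. A low score marks a bin that few contacts cross. Strength comes from the mean score before a bin minus the mean score after it, over a delta span of 320 kb. It is the highest such difference before the boundary minus the lowest after it, so it measures how sharply the score turns. The score fell to -0.39 in WT and to -0.71 in the Firre KO-labelled matrix. Strength was 1.41 in WT, rank 19 of 130 boundaries of chromosome 11, and 1.94 in the Firre KO-labelled matrix, rank 34 of 118. With squares of 240 and 960 kb instead of 480 kb, the boundary lay 1 bin later in the Firre KO-labelled matrix than in WT.

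In the Firre KO-labelled matrix the score at the boundary was thus lower by 0.31 and the strength greater by 0.54. With the plain mean of the square, for which a counting interval can be written, strength was 1.28 (1.15 to 1.40) in WT and 1.73 (1.57 to 1.90) in the Firre KO-labelled matrix, a difference of 0.46 (0.26 to 0.66). The square at the boundary held 888 read pairs in WT and 472 in the Firre KO-labelled matrix over 144 bin pairs. A difference of this size was common. Over the 1188 autosomal boundaries present in both matrices the median difference in strength was 0.50, and 47.6% differed by at least as much as the Kcnj2-Sox9 boundary. Of 2564 autosomal boundaries, 1077 had a fall in score at least as large, and 63.5% had any fall. From the read pairs before correction, the score difference was only -0.04, while the difference in strength was 0.46.

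**Figure D1:**
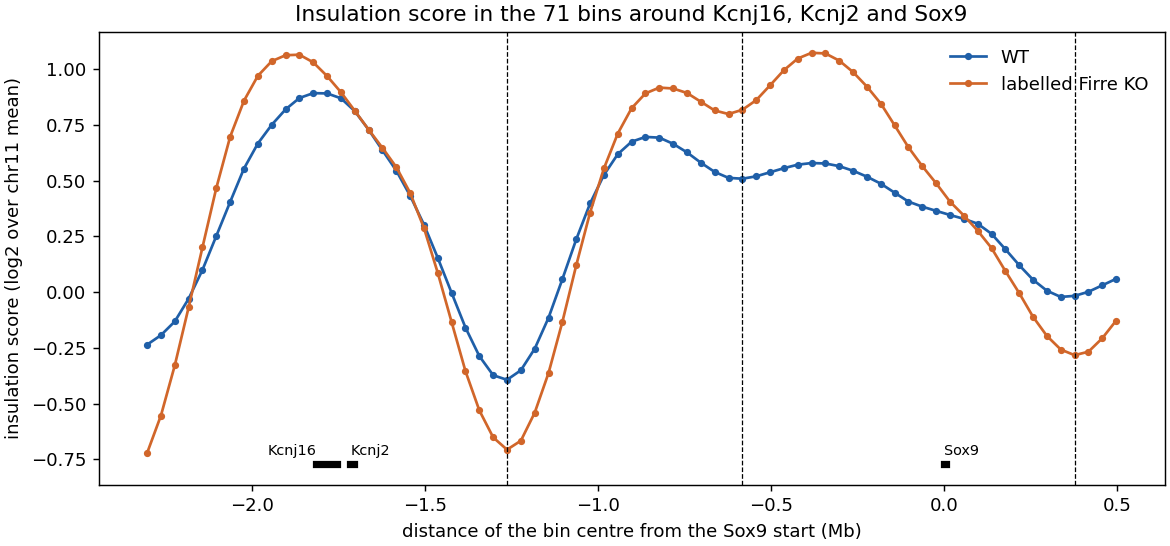
Insulation score (log2 over the chromosome 11 mean) in the 71 bins against the distance of the bin centre from the Sox9 start in Mb, for WT and the Firre KO-labelled matrix. Dashed lines mark the WT boundaries and black bars the 3 genes. Both profiles dip in the same bin between Kcnj2 and Sox9, to -0.39 and -0.71.

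The region held 3 boundaries in each matrix, and all 3 were present in both within 1 bin, whereas 46.2% of the 2569 autosomal WT boundaries were. The same number were stronger in the Firre KO-labelled matrix, as were 80.2% of shared autosomal boundaries. A shallow boundary within the desert lay at chr11:112040001-112080000 in WT (strength 0.20) and 1 bin earlier in the other matrix (0.30). The boundary beyond Sox9, chr11:113000001-113040000, lay within the long non-coding RNA gene 2610035D17Rik, with strengths of 0.36 in WT and 0.74 in the Firre KO-labelled matrix. Across the 71 bins, the scores of both matrices followed each other with Pearson r = 0.96 and Spearman rho = 0.92, although overlapping squares make neighbouring bins dependent. Of the 3, the boundary between Kcnj2 and Sox9 alone had a strength above 0.5 in both matrices. The next boundary before the region, chr11:110200001-110240000, had 1.05 in WT and 2.06 in the Firre KO-labelled matrix, there above the 1.94 between Kcnj2 and Sox9. The lowest score of the 71 bins in the Firre KO-labelled matrix, -0.72, lay in the first bin, chr11:110320001-110360000.

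The WT boundaries set the domains that were compared. The Kcnj side, from the boundary next to Map2k6, a MAP kinase kinase gene, to the Kcnj2-Sox9 boundary, spanned chr11:110240001-111360000 with 28 bins. The Sox9 side spanned chr11:111400001-113000000 with 40 bins. Contacts are given as observed over expected, the corrected value divided by the mean of chromosome 11 at the same distance, so that 1 is the chromosome average.

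**Figure D2:**
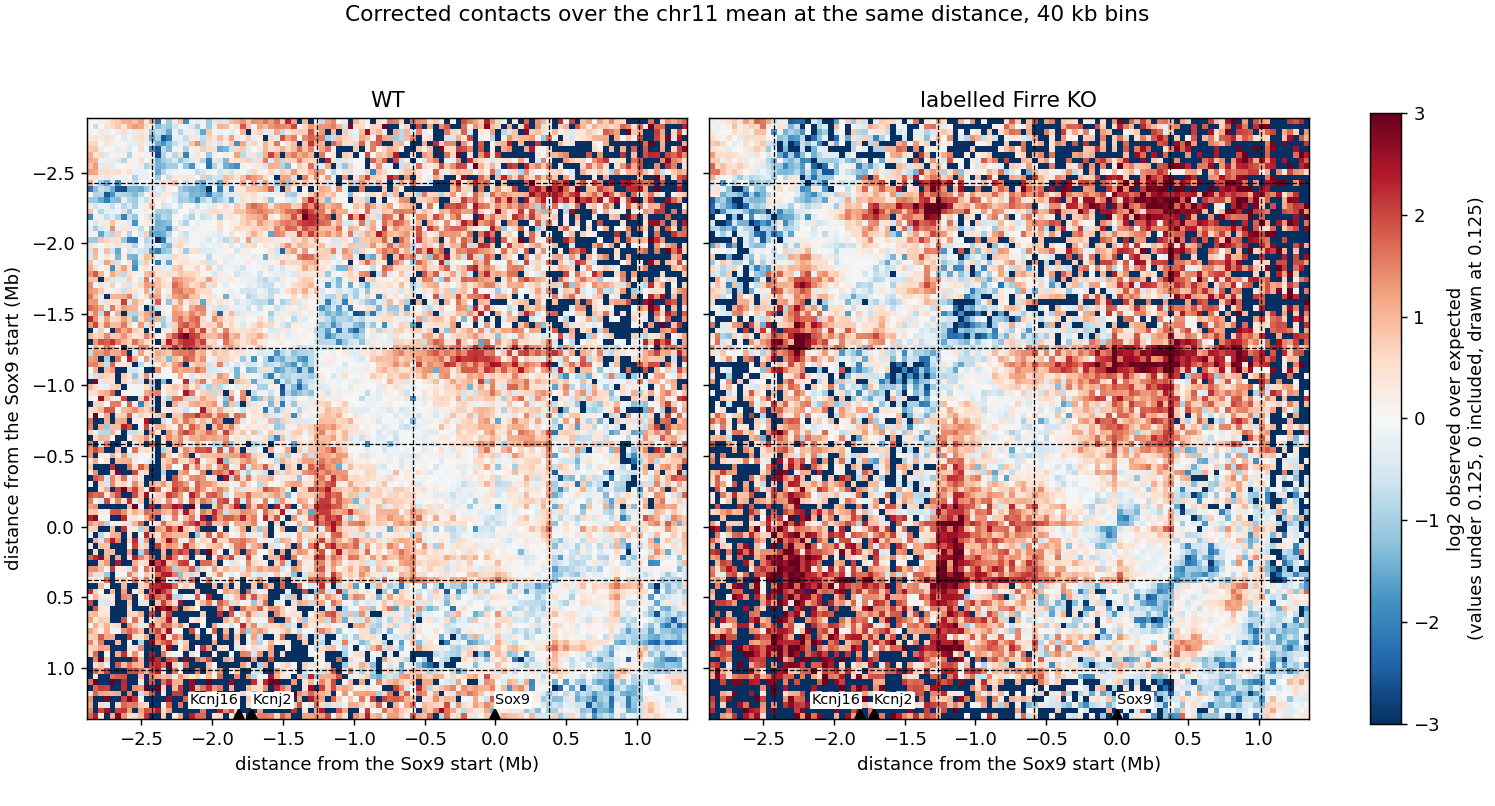
Observed over expected contacts on a log2 colour scale in 40 kb bins, for WT (left) and the Firre KO-labelled matrix (right), with both axes in Mb from the Sox9 start. Dashed lines mark the WT boundaries and triangles the starts of the 3 genes. Red spots lie where the ends of the Sox9 side meet, with observed over expected of 2.52 and 8.12.

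Within each domain, contacts were higher in the Firre KO-labelled matrix. These ratios were not set beside those of other autosomal domains. On the Kcnj side, the mean of 378 bin pairs was 1.39 in WT (7901 read pairs) and 1.77 in the Firre KO-labelled matrix (5026 read pairs), a log2 ratio of 0.35 (0.27 to 0.43). On the Sox9 side, the mean of 780 bin pairs was 1.52 in WT (21841 read pairs) and 2.08 (14706 read pairs), a log2 ratio of 0.46 (0.41 to 0.51). On the Sox9 side the log2 ratio grew with distance from band to band, from 0.05 (-0.01 to 0.10) at 80 to 240 kb to 1.26 (0.99 to 1.53) at 1280 to 1440 kb. On the Kcnj side it did not grow steadily, with 0.10 (0.01 to 0.20) at 80 to 240 kb, 0.39 (0.26 to 0.52) at 280 to 440 kb, 0.15 (-0.02 to 0.32) at 480 to 640 kb and 0.35 (0.12 to 0.58) at 680 to 840 kb. The last band, 880 to 1040 kb with 20 bin pairs, had 1.14 (0.81 to 1.46). Pairs inside the boundary-proximal part of the Sox9 side had a log2 ratio of 0.10 (0.01 to 0.19), and pairs inside the Sox9-proximal part had 0.18 (0.12 to 0.25). Bin pairs that joined both parts over the shallow inner boundary, which are farther apart, had 1.87 and 2.87, a log2 ratio of 0.62 (0.54 to 0.69). As ratios of summed values, the log2 ratios were smaller, 0.18 (0.12 to 0.24) on the Kcnj side and 0.19 (0.16 to 0.23) on the Sox9 side. On the Sox9 side the ratio was 0.72 (0.67 to 0.77) from read pairs before correction and -0.04 (-0.15 to 0.07) in a fixed window of 480 kb next to the boundary.

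Contacts between the 2 domains were lower in the Firre KO-labelled matrix in the bands up to 1640 kb and higher in those beyond. No autosomal background was taken for the ratios by distance. Over all 1120 bin pairs that cross the boundary, the mean was 1.62 in WT (4296 read pairs) and 1.78 in the Firre KO-labelled matrix (2918 read pairs), a log2 ratio of 0.13 (0.05 to 0.22). Bin pairs 280 to 440 kb apart had 0.54 in WT (237 read pairs) and 0.45 in the Firre KO-labelled matrix (121 read pairs), and the interval of their log2 ratio of -0.25, from -0.59 to 0.08, included 0. At 480 to 640 kb the ratio was also -0.25 (-0.51 to 0.02), while at 680 to 840 kb it was -0.40 (-0.65 to -0.15). At 280 to 440 kb, pairs within the Kcnj side had 1.18 and 1.55 and pairs within the Sox9 side had 1.25 and 1.44. Crossing pairs at this distance were thus below and domain pairs above the chromosome average in both matrices.

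From 280 to 1040 kb, crossing pairs had 1.12 in WT and 0.87 in the Firre KO-labelled matrix, a log2 ratio of -0.37 (-0.50 to -0.23). Beyond 1640 kb, the order turned, with 1.98 and 2.94 and a log2 ratio of 0.57 (0.43 to 0.71). In the bands between, the ratio was -0.36 (-0.58 to -0.14) at 1080 to 1240 kb, -0.23 (-0.46 to -0.00244) at 1280 to 1440 kb and -0.14 (-0.38 to 0.10) at 1480 to 1640 kb, and the first band beyond, 1680 to 1840 kb, had 0.24 (-0.01 to 0.49). The ranges of 280 to 1040 kb and beyond 1640 kb were chosen after the values by distance had been seen. The most distant crossing pairs, 2480 to 2720 kb apart, had 2.65 and 6.96. The sign of the mean over all crossing pairs therefore rested on the range of distances and on the summary. A ratio of summed values gave -0.04, the expected value of all autosomes gave -0.00205, and fixed windows of 480 kb gave -0.21 (-0.40 to -0.02).

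**Figure D3:**
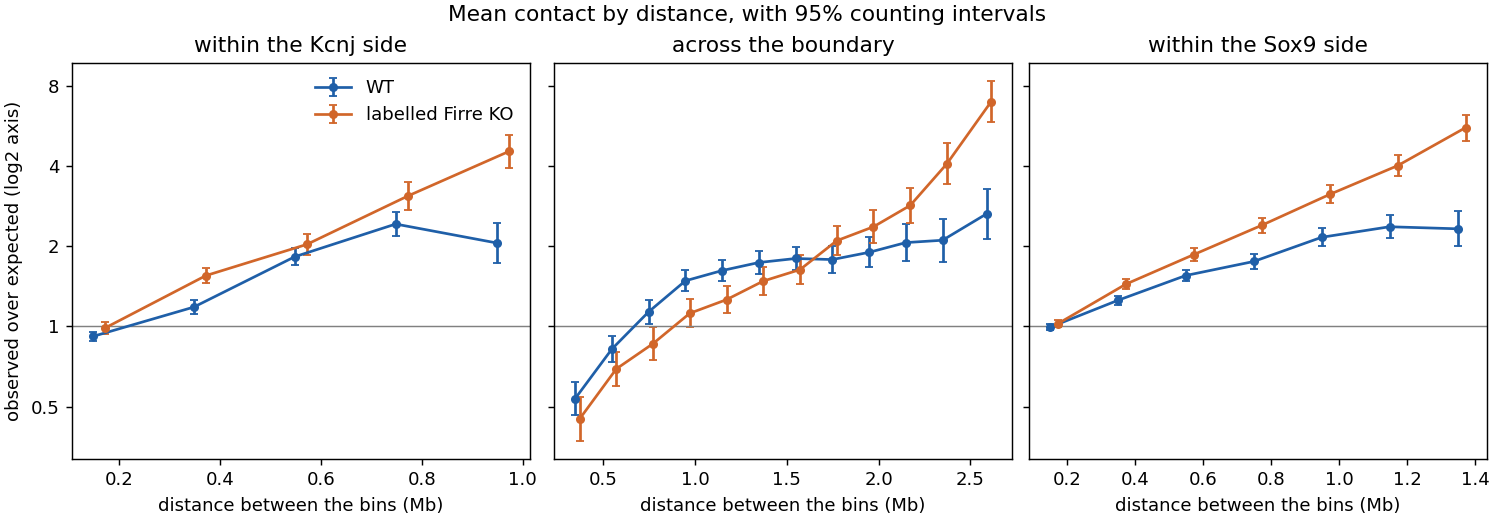
Mean observed over expected (log2 axis) against the distance between bins in Mb, within the Kcnj side, across the boundary and within the Sox9 side, for WT and the Firre KO-labelled matrix, with 95% counting intervals. Across the boundary the Firre KO-labelled matrix lies below WT at 680 to 840 kb (0.86 against 1.14) and above it at the longest (6.96 against 2.65).

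The crossing contacts of the whole domains were high beside those in rectangles placed at other boundaries, which were not cut to the domains there. Such a rectangle can run over further boundaries, while the one here ended at its own domain ends. Rectangles of the same shape were placed at 2465 autosomal WT boundaries, and 97.7% of the others had a WT value as low as that of the Kcnj2-Sox9 boundary. Their median log2 ratio was -0.23, 65.7% were below 0 and 29.0% were at or below -0.5. Of the others, 73.6% had a ratio as low as the 0.13 found here. The Kcnj2-Sox9 value differed between the parts of the Sox9 side. The Sox9-proximal part lies farther from the Kcnj side, and the parts were not compared at the same distances. The Kcnj side with the boundary-proximal part of the Sox9 side had 1.31 in WT and 1.17 in the Firre KO-labelled matrix, a log2 ratio of -0.16 (-0.28 to -0.04), while the Kcnj side with the Sox9-proximal part had 1.87 and 2.23, a ratio of 0.25 (0.14 to 0.36). Beyond the Sox9 side, contacts with the next domain, which holds the zinc transporter gene Slc39a11 and the somatostatin receptor gene Sstr2, had 0.97 and 1.61, a log2 ratio of 0.73 (0.63 to 0.83). No autosomal background was taken for this ratio.

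Sox9 contacts with its gene desert were read from the bin with the Sox9 start, chr11:112640001-112680000, to the 30 bins between the boundary and Sox9 that lie at least 80 kb away. This bin also holds the start of BC006965, a long non-coding RNA gene on the other strand. The 30 bins held 310 read pairs with Sox9 in WT (1 to 38 per bin) and 257 in the Firre KO-labelled matrix (2 to 19 per bin). Observed over expected was 1.25 (1.06 to 1.48) in WT and 2.34 (2.01 to 2.72) in the Firre KO-labelled matrix, a log2 ratio of 0.90 (0.57 to 1.23). The ratio was 0.58 (0.33 to 0.83) as a ratio of summed values, 1.10 (0.79 to 1.41) from read pairs before correction and 0.92 (0.78 to 1.06) with 3 bins as viewpoint. The means of 1.25 and 2.34 weighed each bin alike, so far bins with few read pairs counted as much as near ones. In WT the stretches at 80 to 240 and 280 to 440 kb, with 128 and 49 read pairs, had 0.68 and 0.67. All desert stretches farther from Sox9 were above 1 in WT.

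The profile along the desert was not even. The stretch next to Sox9, at 80 to 240 kb upstream, had 128 and 46 read pairs and lay below the average in both matrices, with 0.68 in WT and 0.53 in the Firre KO-labelled matrix. At 680 to 840 kb it had 31 and 53 read pairs and stood at 1.05 (0.73 to 1.52) and 3.03 (2.29 to 4.02). In the stretch that adjoins the boundary, at 1080 to 1240 kb, it reached 2.58 (1.75 to 3.78) and 4.54 (3.23 to 6.38) on 27 and 34 read pairs. The single desert bin with the highest value was the same in both matrices, chr11:111480001-111520000, with 10 read pairs and 5.44 in WT and 9 read pairs and 6.92 in the Firre KO-labelled matrix. Downstream of Sox9, the 80 to 240 kb stretch had 1.26 and 1.50.

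**Figure D4:**
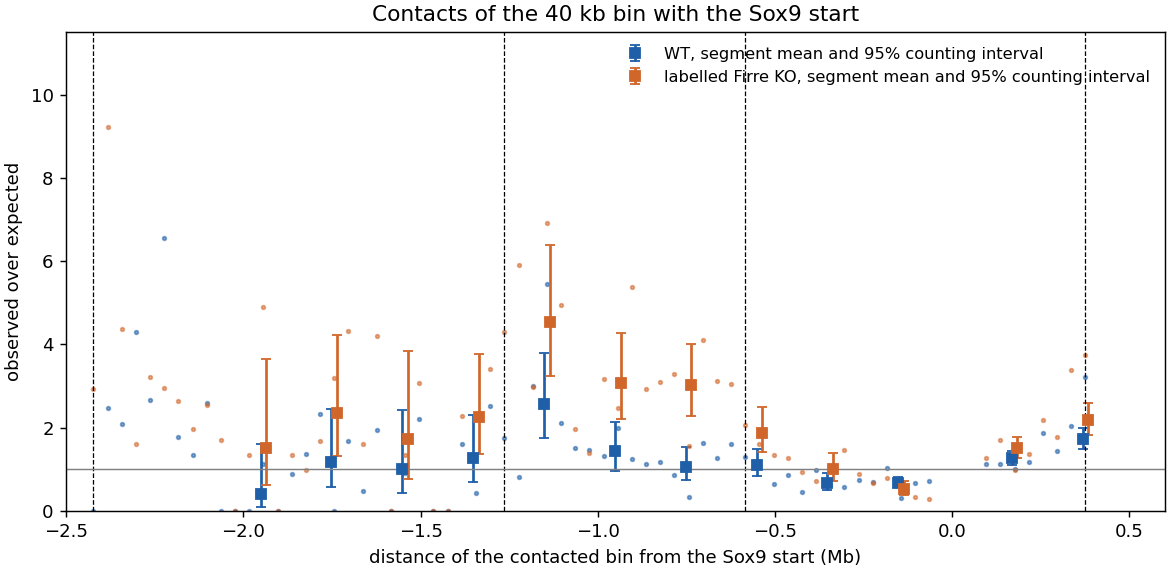
Observed over expected contact of the Sox9 start bin against the distance of the contacted bin from the Sox9 start in Mb, for WT and the Firre KO-labelled matrix. Dots are single bins, squares are means of 5 bins with 95% counting intervals, and dashed lines are WT boundaries. In the desert, observed over expected is 0.68 in WT and 0.53 in the Firre KO-labelled matrix next to Sox9, and 2.58 and 4.54 next to the boundary. In WT the rise between them is not steady.

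From 246 other starts of autosomal protein-coding genes, the same distances were read into a bordering interval without known protein-coding genes. Each interval was at least 1 Mb long. These readings were not cut at boundaries in the interval, while that of Sox9 ended at the Kcnj2-Sox9 boundary. The other starts had a median of 1.13 in WT and 1.38 in the Firre KO-labelled matrix, with a median log2 ratio of 0.25. With Sox9 included, 70.0% had a ratio above 0 and 31.6% a ratio of at least 0.5. In WT, 87 of the other starts had a value as high as that of Sox9, and in the Firre KO-labelled matrix 27 had. The ratio was as high at 26 of the others, 10.6%. Of Sox9 read pairs at 80 kb to 2 Mb, 32.1% (29.4 to 35.0) pointed upstream into the desert and beyond in WT, against 42.3% (38.7 to 46.0) in the Firre KO-labelled matrix.

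Across the boundary, Sox9 had few read pairs with the Kcnj side, 45 in WT and 47 in the Firre KO-labelled matrix over 28 bins. Observed over expected was 1.47 (1.08 to 2.01) and 2.33 (1.68 to 3.23), a log2 ratio of 0.66 (0.01 to 1.31) whose interval reached almost to 0 and, with the expected value of all autosomes, included it. In blocks of 3 by 3 bins, Kcnj2 and Sox9 were joined by 31 and 36 read pairs, with 1.21 (0.84 to 1.74) in WT and 2.39 (1.69 to 3.38) in the Firre KO-labelled matrix. Kcnj16 and Sox9 were joined by 24 and 28 read pairs, with 1.53 and 2.44, and the interval of their log2 ratio, -0.16 to 1.51, included 0. The neighbours Kcnj16 and Kcnj2 were joined by 455 and 211 read pairs, with 0.94 and 0.80, and here too the interval of the ratio, -0.48 to 0.01, included 0.

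Seen from the Kcnj genes, contacts with the Sox9 side differed by stretch. Kcnj16 had 168 read pairs with the 30 desert bins in WT and 84 in the Firre KO-labelled matrix, with observed over expected of 1.76 (1.48 to 2.10) and 1.16 (0.91 to 1.48), a log2 ratio of -0.61 (-1.04 to -0.17). Kcnj2 had 163 and 106 read pairs with the same bins, with 1.22 and 1.09, and the interval of its ratio, -0.58 to 0.26, included 0. In the desert stretch next to the boundary, 480 to 640 kb downstream of Kcnj2, the values were 0.66 and 1.05, a log2 ratio of 0.67 (-0.03 to 1.38). With the 7 bins of the Sox9 side beyond Sox9, Kcnj2 had 27 and 38 read pairs and values of 1.69 and 3.49, a log2 ratio of 1.05 (0.32 to 1.78), while Kcnj16 had 1.85 and 1.97, a ratio of 0.09 (-0.79 to 0.98). Within the Kcnj side, contacts were higher in the Firre KO-labelled matrix for both genes, by 0.25 (0.04 to 0.47) in log2 for Kcnj16 and by 0.55 (0.36 to 0.74) for Kcnj2. Kcnj2 contacts with the 5 bins at 480 to 640 kb upstream, near the outer end of its domain, had 2.14 in WT on 131 read pairs and 4.14 on 137 read pairs in the Firre KO-labelled matrix.

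Of the blocks of 3 by 3 bins that were measured, those between domain ends and between the Kcnj2-Sox9 boundary and Sox9 had the highest values in the Firre KO-labelled matrix. The blocks between domain ends were measured in addition to the planned comparisons. The Kcnj2-Sox9 boundary and the boundary beyond Sox9, 1640 kb apart, shared 64 read pairs in WT and 149 in the Firre KO-labelled matrix. Observed over expected was 2.52 (1.94 to 3.27) and 8.12 (6.82 to 9.68), a log2 ratio of 1.69 (1.24 to 2.15). The Kcnj2-Sox9 boundary and Sox9 itself were joined by 67 and 121 read pairs, with 1.96 (1.51 to 2.54) and 5.07 (4.19 to 6.12), a log2 ratio of 1.37 (0.91 to 1.84).

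On the Kcnj side, the outer boundary at chr11:110200001-110240000 and the Kcnj2-Sox9 boundary were joined by 24 and 42 read pairs, with 1.44 (0.95 to 2.17) and 4.45 (3.24 to 6.11), a log2 ratio of 1.63 (0.88 to 2.38). The outer ends of both domains, farthest apart, were joined by only 20 and 31 read pairs, with 3.32 (2.09 to 5.27) and 7.44 (5.01 to 11.1). Among 161 other autosomal pairs of shared boundaries within 200 kb of the same distance, 14 had a WT value as high as the ends of the Sox9 side and 0 had a value as high in the Firre KO-labelled matrix. The median log2 ratio of the others was 0.25, and 2 of them had one as high. With the Sox9 side included, 64.8% were above 0 and 11.7% at or above 1. The pairs were any shared boundaries at this distance, not only the ends of 1 domain. The other blocks had no such comparison.

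**Figure D5:**
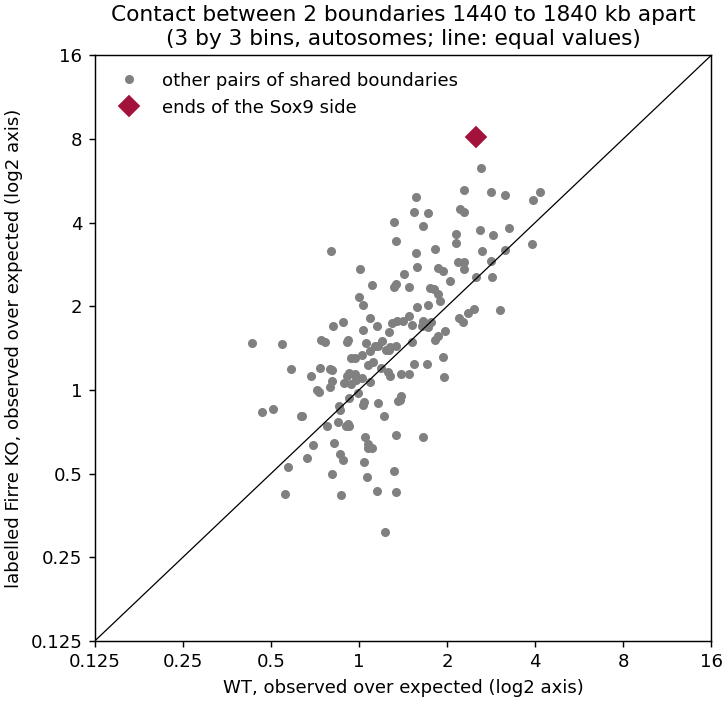
Observed over expected between 2 shared boundaries of similar distance in the Firre KO-labelled matrix against WT, both on log2 axes, with 1 point per autosomal pair and a line of equal values. The ends of the Sox9 side, at 2.52 and 8.12, have the highest value of the 162 pairs in the Firre KO-labelled matrix.

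The share of read pairs that joined the region to other chromosomes was 18.2% (18.0 to 18.4) in WT and 34.0% (33.7 to 34.2) in the Firre KO-labelled matrix. Over all autosomal bins the shares were 16.8% and 36.8%. The 3 start bins held 2207 (Sox9), 2322 (Kcnj16) and 2593 (Kcnj2) read pairs in WT and 1494, 1759 and 1850 in the Firre KO-labelled matrix. Their shares to other chromosomes ran from 16.5% (Sox9) to 20.5% (Kcnj16) in WT and from 29.0% (Sox9) to 39.1% (Kcnj16) in the Firre KO-labelled matrix. This difference in the libraries moved with every comparison above, and its part in them was not tested. The region was not poor in HindIII sites, with a median of 13 per bin, equal to that of autosomal bins, and 18 in the boundary bin, although the Sox9 bin held 9.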

How the data were processed

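Hi-C was read from 1 corrected matrix per group, each made by the authors from 2 pooled libraries. Per the labels and methods, reads were mapped to mm9, filtered, binned at 40 kb and corrected iteratively with HiC-Pro 2.7.8. The authors deposited the corrected contact signal of each bin pair. Correction gives every kept bin an equal sum, which raises the signal of thinly covered bins. No column of another series was met. The genes and the region were chosen with earlier results of these data known, and so were the lists and comparisons. The chosen genes are always named, and other genes only as landmarks from the annotation.

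Each deposited signal equals a whole number of read pairs times 1 weight per bin. Weights were fitted, and 100% of values came within 0.05 of a whole number, which gave the depth. Chromosome lengths equalled those of the mm9 reference (22 of 22), and genes were those of GENCODE for that build. Sequences were read from the same mm9 genome, with the promoter background from starts of protein-coding genes. The CTCF core, a degenerate consensus with free choices at 4 of its 12 bases, was chosen during the analysis, after 2 narrower forms had been searched.

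Insulation was computed anew with the settings of the study (square 480 kb, delta span 320 kb, smoothing 160 kb, interquartile mean, strength above 0), and details can differ from the script the authors used. The WT boundary with the highest strength between Kcnj2 and Sox9 was taken, and the nearest WT boundaries before Kcnj16 and after Sox9 closed the domains. Where a boundary was read in the other matrix it was looked for within 80 kb. A background rectangle or start needed 80% of its bin pairs kept, and a block all 9. Starts and blocks also needed at least 10 read pairs per matrix, and starts a minimum number of bins in the interval. Long gene-free intervals were set by genes of known status, since a gene model of unsettled status, Gm11678, lies in the Sox9 desert. Intervals of read pairs are exact Poisson, those of shares are Wilson, and those of observed over expected and of plain-mean scores follow from the Poisson variance with weights and expected values held fixed. Read pairs without molecular identifiers are not independent molecules. Bins are not replicates. The recovery of read pairs, the boundary call and the log2 ratio across a boundary were tested on simulated data. The other steps were not. Python 3.11.15, NumPy 2.4.6 and SciPy 1.17.1 were used. Alternatives covered the square, delta span, summary, correction, expected value, domain limits, viewpoint and boundary match.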

Additional observations from a re-analysis of the deposited data

How the results depend on the processing

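No paired analysis was possible because each group is 1 pooled matrix, and for the same reason no replicate could be left out. Of 50 alternatives, 30 stayed within the counting interval of the reported value (counts: within 1.5 times), 15 moved beyond it and 5 turned the sign; 41 were planned and 9 were added after seeing the data. The causes of the changes were not tested, except that other windows and distances use other bin pairs. The Sox9 contacts with its desert and with the Kcnj side, and the block between the ends of the Sox9 side, stayed within their intervals under all alternatives run for them. The strength difference at the Kcnj2-Sox9 boundary was 0.84 with a square of 240 kb, and the boundary of the Firre KO-labelled matrix lay 1 bin later with squares of 240 and of 960 kb. The score difference was -0.041 from read pairs before correction. The log2 ratio across the boundary turned to -0.036 as a ratio of sums, to -0.00205 with the expected value of all autosomes, to -0.21 in fixed windows of 480 kb and to -0.37 at 280 to 1040 kb. It was 0.48 from read pairs before correction, 0.48 with the Sox9 side taken to the next WT boundary, and 0.57 above 1640 kb. Within the Kcnj side the log2 ratio was 0.52 from read pairs, 0.18 as a ratio of sums and 0.27 with the expected value of all autosomes. Within the Sox9 side these values were 0.72, 0.19 and 0.34, with 0.55 to the next WT boundary and -0.041 in fixed windows. Of the WT boundaries of the region, 1 of 1 was shared with a strength above 0.5 and 1 of 1 with a square of 960 kb, against 4 of 5 with a square of 240 kb, 2 of 3 in the same bin and 3 of 3 within 2 bins. The difference in the share of read pairs to other chromosomes, 15.7 percentage points, was 16.9 in the bins of the 3 genes. Depth limited values that rest on few read pairs, such as Sox9 with the Kcnj side (45 and 47) and the outer ends of both domains (20 and 31), and 12.5% of the bin pairs in the boundary square of the Firre KO-labelled matrix had none.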

Other observations

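The coarse contact pattern of chromosome 11 was summarised by the first eigenvector of the correlation matrix in windows of 200 kb, signed so that gene-rich windows were positive. Of the 14 windows of both domains, 13 in WT and 14 in the Firre KO-labelled matrix were below 0, on the gene-poor side, against 50.3% and 55.2% of the chromosome's windows. The values ran from -1.17 to 0.01 in WT and from -0.70 to -0.10 in the Firre KO-labelled matrix. As percentiles of the chromosome's windows, those of the Sox9 side ran from 12.8 to 41.2 in WT and from 42.9 to 51.9 in the Firre KO-labelled matrix. The windows before them ran from 21.2 to 49.6 in WT and from 34.8 to 49.9 in the Firre KO-labelled matrix. The total behind these percentiles also counted windows without a value, so the percentiles are slightly too low. The window with Sox9 had -0.45 in WT and -0.22 in the Firre KO-labelled matrix, and the window with Kcnj16 and Kcnj2 had -0.81 and -0.65. The desert window next to the boundary was the lowest of the 14 in WT, at -1.17, and stood at -0.41 in the Firre KO-labelled matrix. Over the 594 windows of the chromosome both vectors had a Pearson correlation of 0.84, which is a description, since the windows share libraries.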
